A study of Homo sapiens with 2 samples.

Results

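The genes described here write, copy and read cytosine methylation of DNA. They are the DNA methyltransferases DNMT1, DNMT3A and DNMT3B, the cofactor DNMT3L, the hemimethylated DNA binding protein UHRF1, and the methyl-CpG binding domain proteins MBD1, MBD2, MBD3 and MBD4. These 9 genes were taken by symbol from the array design with no filter on their values, though earlier results of these data were known. They were represented by 15 of the 41000 transcript probes (30982 gene names in all). Their mRNA was measured on 2 one-color oligonucleotide arrays of Y79 cells, a long-established line of human retinoblastoma cells grown in suspension, with 1 array of untreated cells and 1 array of cells collected 48 h after Ep-CAM siRNA. The labels name the reference as untreated, so the delivery of siRNA and the targeting of Ep-CAM cannot be told apart. According to the study's text both cultures had been exposed to 5′-azacytidine (AZC), which the sample labels do not give. That text describes cells withdrawn from AZC after the exposure. For its viability assay it states that they were kept in complete medium before siRNA was added. As each condition had a single array of a single culture, no test between the conditions was possible, and every ratio below is a description of these 2 arrays.

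DNA methylation is a mark on cytosine, mostly in CpG dinucleotides, that is associated with silencing when it lies on promoters. DNMT3A and DNMT3B place new marks, with DNMT3L as a catalytically inactive partner. DNMT1 copies the marks onto the new strand after replication, and UHRF1 brings it to hemimethylated sites. AZC is a cytidine analog that is built into nucleic acids, where it traps the methyltransferases and leaves the new strand undermethylated, so the enzymes described here are the targets of the agent that both cultures are said to have received. The MBD proteins read the mark or belong to complexes that act on it.

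Ep-CAM, the target of the siRNA, is named TACSTD1 in the array design and had 1 probe, on chromosome 2 between 47525545 and 47525604 (hg17, the build of all probe positions). The processed signal of this probe, meaning brightness after background subtraction in arbitrary units, was 15.6 without and 11.96 with siRNA, neither of them well above background. On these arrays the siRNA label is therefore not checked by its target. The study itself reported lower Ep-CAM mRNA by quantitative PCR and lower Ep-CAM protein by western blot at 48 h of siRNA. The share of transcript spots well above background was 70.4% without and 68.0% with siRNA. Of 7 photoreceptor-lineage markers, 3 were well above background on both arrays, with log2 ratios of -0.37 for CRX, -0.47 for OTX2 and -0.21 for ARR3 (median -0.37), and RCVRN, NEUROD1 and PDE6H were on neither. Of 8 markers of other cell types, 7 were well above background on both arrays, among them KRT8 at 589 and 648, and their median log2 ratio was 0.02. The part of either marker list in the results was not tested. Ratios were more variable in a corner of the array (rows 355 to 532, columns 43 to 85), where the log2 ratios of the measured probes had an SD of 0.51 against 0.29 elsewhere. That corner holds 5 of the 15 probes described here: DNMT1, DNMT3L, DNMT3A probe 2, MBD1 probe 1 and MBD3 probe 2.

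The ratios below rest on short probes, and the 7 that carry the contrasts are shown 5′ to 3′ as in the array design. Each probe has 60 bases, of which the first 30 are given for the 2 DNMT3A probes.
DNMT3A probe 1: agggagacgagaacaccacacaagacattt
DNMT3A probe 2: caaaaagtcttccttccaagcgtgtatgat
DNMT1: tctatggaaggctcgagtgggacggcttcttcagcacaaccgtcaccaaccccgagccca
UHRF1 probe 1: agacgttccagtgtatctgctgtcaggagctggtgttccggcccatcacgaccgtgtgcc
MBD3 probe 2: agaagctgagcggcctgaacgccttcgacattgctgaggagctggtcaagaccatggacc
MBD1 probe 1: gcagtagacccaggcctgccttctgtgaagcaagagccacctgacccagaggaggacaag
MBD1 probe 2: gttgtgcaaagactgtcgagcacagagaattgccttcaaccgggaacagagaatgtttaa
The 2 DNMT3A probes lie at separate places of the gene on chromosome 2, at 25368066 to 25368125 and at 25416045 to 25416104. In the array design the first matches 3 RefSeq transcripts and the second matches 1, so the pair do not read the same set of transcripts. The DNMT1 probe (chromosome 19 from 10107808 to 10107867) is in the coding part for the methyltransferase domain, and UHRF1 probe 1 (chromosome 19 from 4907748 to 4907807) in the coding part for the RING finger, the domain with ubiquitin ligase activity. MBD1 probe 2 covers 60 bases of transcript but 303 bases of chromosome 18, from 46056747 to 46057049, and so spans a splice junction.

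A probe was counted as measured when it was well above background on both arrays. This held for 9 of the 15 probes, which belong to 6 of the 9 genes. DNMT3A probe 1 fell past the 2-fold threshold, DNMT1 and UHRF1 had lower signals short of that threshold, and the measured MBD probes lay close to 0 on the log2 scale. After each array had been divided by the median of its transcript spots, the log2 ratio of siRNA-treated over untreated cells was at or below -1 for 1 of the 9 probes and at or above 1 for 0. Over all 26975 measured probes the share was 0.801% lower and 0.793% higher. The median log2 ratio was -0.11 over the 9 probes and -0.03 over all measured probes, whose SD was 0.33.

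**Figure D1:**
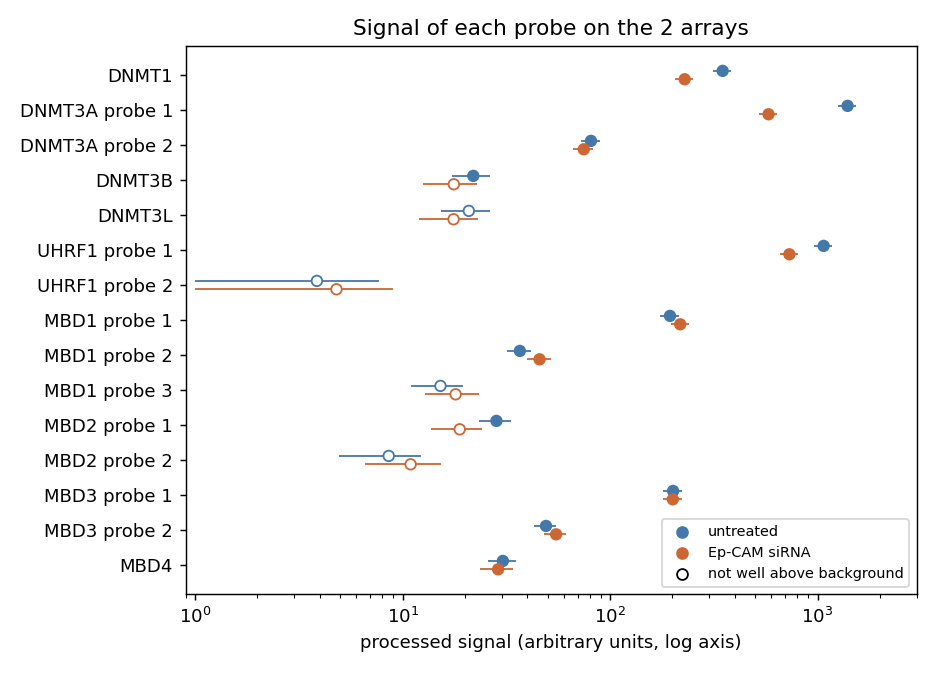
Processed signal (arbitrary units, log axis) of the 15 probes on the untreated and the siRNA-treated array. Bars are the Feature Extraction error of the spot, drawn no lower than 1, and open circles were not well above background; the errors do not overlap at DNMT3A probe 1 (1396 and 581), UHRF1 probe 1 (1070 and 732) and DNMT1 (349 and 229, but 255 and 222 before the trend correction).

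DNMT3A, a de novo methyltransferase, gave the lowest ratio among these genes. Its probe 1 (A_23_P154500) gave a processed signal of 1396 ± 140 without siRNA and 581 ± 58.2 with it, where the error is that of the scanner software for the single spot. The log2 ratio was -1.30, so that the scaled signal fell by 59.4%. Repeated spots of 14 probes of like brightness had a technical SD of 0.08 in their log2 ratio, so the difference is many times the spread between spots, while the spread between cultures is unknown. Only 57 of the 26975 measured probes (0.211%) had a ratio as low.

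DNMT3A probe 2 (A_23_P420373) read 81.0 and 74.7, with a log2 ratio of -0.15 that equals the technical SD of 0.15 at its brightness. Its spot lies inside the variable corner, while that of probe 1 lies outside it. However, the 318 measured spots around probe 2 had an SD of 0.28, close to the 0.29 outside the corner. The ratios of the DNMT3A probes thus differed by -1.15 on the log2 scale. Which of the transcripts the probes see had changed was not tested. Such disagreement was common on these arrays. In all, 72 genes had a measured probe at or below -1 and another measured probe. The next lowest probe of the gene was also at or below -1 in 4 (5.56%), and its median log2 ratio was -0.20.

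DNMT1, the maintenance methyltransferase, was read from a single probe (A_24_P408083). It read 349 ± 35.2 without siRNA against 229 ± 23.3 with it, and its log2 ratio was -0.64 with a technical SD of 0.12. Its spot lies in the last of 85 columns of the array, inside the variable corner, and its value depended on one step of the processing. Feature Extraction divides each background-subtracted signal by a factor for the trend across the array, and at this spot this factor was 0.731 for untreated and 0.968 for siRNA-treated cells. Before that division the signals were 255 and 222 and the log2 ratio was -0.24. The factors moved the ratio of DNMT1 by -0.40, a shift that only 0.538% of all spots had or went below, with 5th and 95th percentiles of -0.11 and 0.11 over all spots.

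UHRF1, which reads hemimethylated DNA, read 1070 ± 107 in untreated cells and 732 ± 73.3 after siRNA at probe 1 (A_32_P101235). The log2 ratio was -0.58, with a technical SD of 0.08, and the spot lies outside the corner. It was -0.67 before the trend correction, which raised it by 0.09. UHRF1 probe 2 (A_23_P208880, chromosome 19 from 4913065 to 4913124) was dim on both arrays, at 3.87 and 4.81, and gives no further reading. The ratios of DNMT1 and UHRF1 were not extreme among all probes, since 3.86% of measured probes were as low as DNMT1 and 4.82% as low as UHRF1.

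The other genes of de novo methylation were near the limit of detection. DNMT3B (A_23_P28953, chromosome 20 from 30860725 to 30860784) read 21.9 ± 4.55 in untreated cells. After siRNA it read 17.7 ± 5.16, not well above background. The scaled reading was 1.27-fold lower, but the errors of the spots overlap and a difference in DNMT3B was not detectable at this signal. DNMT3L (A_23_P17673, chromosome 21 from 44490698 to 44490757) read 20.9 and 17.6, both of them not well above background.

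**Figure D2:**
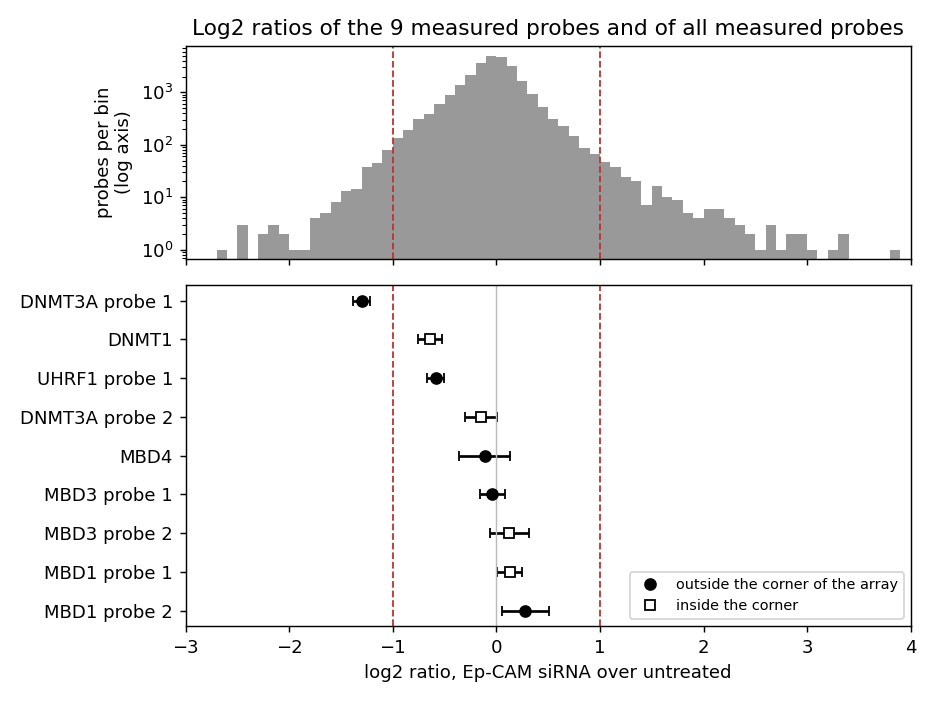
Log2 ratio of siRNA-treated over untreated cells (horizontal axis). The upper panel counts all 26975 measured probes in bins of 0.1 on a log axis, and the lower panel gives the 9 measured probes with bars of 1 technical SD and the 2-fold thresholds as dashed lines; DNMT3A probe 1 at -1.30 is the only one beyond a threshold.

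Of the MBD proteins, MBD1, MBD3 and MBD4 had measured probes, with log2 ratios from -0.11 to 0.28. MBD1, a repressor that binds methylated CpG, read 195 and 218 at probe 1 (A_24_P185347, chromosome 18 from 46053264 to 46053323), with a log2 ratio of 0.13. At MBD1 probe 2 (A_24_P376322) the readings were 36.8 and 45.8 and the log2 ratio was 0.28, with a technical SD of 0.22. MBD1 probe 3 (A_23_P208090) was dim on both arrays. Both readings of MBD1 were thus above 0 (probe 1 turned to -0.32 under the normexp correction described below), and the larger of them is little more than its technical SD. A further probe without a gene symbol, described in the array design as a splice variant of a methyl-CpG binding protein and placed between the MBD1 probes on chromosome 18, had a log2 ratio of 0.11.

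MBD3, a subunit of the NuRD complex that binds methylated DNA only weakly, read 201 and 201 at probe 1 (A_23_P50839, chromosome 19 from 1527867 to 1527926), and its log2 ratio was -0.04. MBD3 probe 2 (A_24_P31527, chromosome 19 from 1533639 to 1533698) read 49.1 and 55.0, and its log2 ratio of 0.13 lay within its technical SD of 0.19. MBD4, a glycosylase that removes thymine from mismatches at CpG sites, read 30.5 and 28.9 (A_23_P92154, chromosome 3 from 130633028 to 130633087), for a log2 ratio of -0.11 with a technical SD of 0.25. For both genes the arrays therefore gave no difference beyond the spread between spots.

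MBD2, which recruits NuRD to methylated promoters, was near the limit of detection. Its probe 1 (A_23_P15864, chromosome 18 from 49935391 to 49935450) read 28.3 ± 4.89 in untreated cells. After siRNA it read 18.9 ± 5.19, not well above background. The scaled reading was 1.54-fold lower, but the errors of the spots overlap. MBD2 probe 2 (A_24_P119201), for a testis-specific variant, was dim on both arrays at 8.58 and 10.9.

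By role, the 4 measured probes of DNMT1, DNMT3A and UHRF1 all had ratios below 0, with a median of -0.61, and they stayed below 0 under every alternative run. Both DNMT3A probes are counted there, and the alternatives reprocess the same arrays, so they add no replication. The 5 measured MBD probes ranged from -0.11 to 0.28 with a median of 0.13. MBD2 is not among them, since its probe 1 was not well above background after siRNA. Its scaled reading was 1.54-fold lower, with overlapping errors of the spots. DNMT3B, 1.27-fold lower, is absent from the first group for the same reason. Over all measured probes, 14943 of 26975 were below 0. With the brightest measured probe of each gene, the median over the 6 measured genes was -0.35, with 1 lower and 0 higher. Over 13477 genes read this way the median was -0.03, with 0.95% lower and 0.853% higher.

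The spots that surround each probe on the array were also read. Around DNMT3A probe 1, the 265 measured spots within 10 rows and 10 columns had a median log2 ratio of -0.07 and an SD of 0.23, and the lowest of them was -1.09. The fall at this probe is therefore below every spot around it. Around DNMT1 the 142 measured spots had a median of 0.02 and an SD of 0.76, with 5 at or below -1 and 19 at or above 1, so that its -0.64 lies inside their spread. For UHRF1 probe 1 the 284 spots had a median of -0.02 and an SD of 0.27, and the ratio of -0.58 lies below their 5th percentile of -0.46. The spots around the other measured probes in the corner were less variable than those around DNMT1. Their SD was 0.28 for DNMT3A probe 2, 0.31 for MBD1 probe 1 and 0.24 for MBD3 probe 2.

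**Figure D3:**
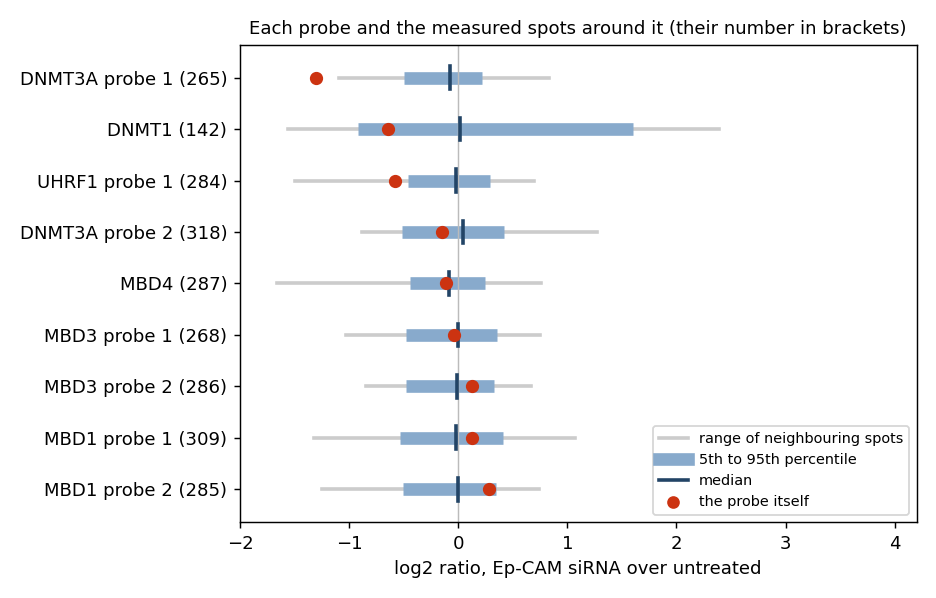
Log2 ratio of each measured probe (red) and of the measured spots within 10 rows and 10 columns of it (median, 5th to 95th percentile and range; their number in brackets). DNMT3A probe 1 lies below the whole range of its 265 neighbours, and DNMT1 lies within the wide range of its 142 neighbours.

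The values of the 9 measured probes were then recomputed under other scalings, background corrections and value columns. DNMT3A probe 1 stayed between -1.70 and -1.17, always past the threshold. UHRF1 probe 1 ranged from -1.18 to -0.45 and DNMT1 from -0.66 to -0.14, the latter being the value in the raw brightness that the authors deposited for the whole series. The MBD1, MBD3 and MBD4 probes ranged from -0.39 to 0.34. The normexp background model, which subtracts a fitted background, gave the extreme value for several probes, and it moved the median of all probes to -0.20. When its fit left out the dimmest spot, that median was -0.02. DNMT3A probe 1 was then -1.17, UHRF1 probe 1 -0.62 and MBD1 probe 1 0.07.

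**Figure D4:**
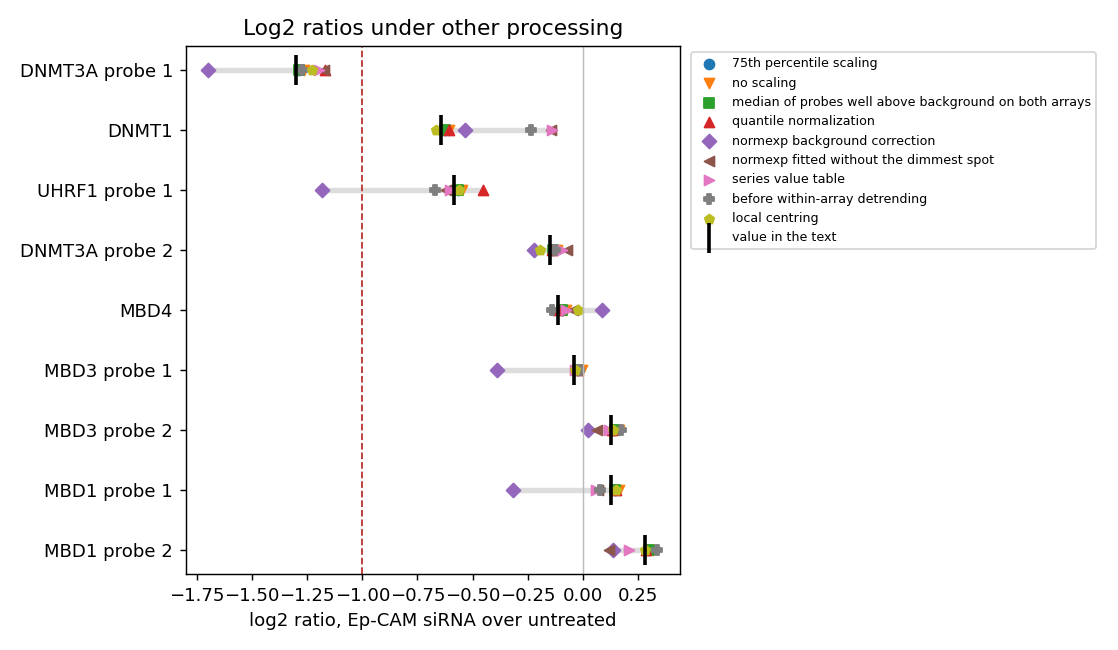
Log2 ratio of each measured probe (horizontal axis) under 9 other settings (colored marks), with the value in the text as a black bar, the range as a gray line and the 2-fold threshold as a dashed line. DNMT3A probe 1 stays left of the threshold at every mark, while DNMT1 spreads from -0.66 to -0.14.

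The promoters of DNMT1 and UHRF1 share a sequence feature that the choice of genes did not use. In RefSeq windows of 300 bases around each start (250 before, 50 after; GRCh38.p14), the letters TTTCCCGC, TTTGGCGC, TTTCGCGC and TTTGCCGC, forms of the motif known for E2F, the family of factors of S-phase genes, were searched on both strands. A window with at least 1 of them was found for DNMT1 and for UHRF1, and for 3.99% of all 27305 genes with windows (3.31% of 35116 windows). In the windows of DNMT3A, DNMT3B, MBD1, MBD2, MBD3 and MBD4 these letters did not occur, and DNMT3L had no window. UHRF1 had windows at several starts. Another of them held TTTCGCGC at position -160 from its start, and a further window held none of these letters. The stretches with the match in capitals, which reads the motif on the opposite strand, are shown to the 10th base after the start.
DNMT1, minus strand, chr19:10194944-10195063: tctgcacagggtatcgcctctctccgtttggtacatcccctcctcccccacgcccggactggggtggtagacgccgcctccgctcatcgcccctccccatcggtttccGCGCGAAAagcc
UHRF1, plus strand, chr19:4909391-4909510: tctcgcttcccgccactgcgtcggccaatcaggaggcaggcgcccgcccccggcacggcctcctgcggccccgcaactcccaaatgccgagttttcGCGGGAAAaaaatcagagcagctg
A match is a description of these letters and not a binding site. The windows are also rich in CpG, the substrate of the enzymes themselves, with 30 CpG for DNMT1 and 36 for this start of UHRF1, against a median of 14 over all windows. The windows of the other listed genes held 18 to 46 CpG, except the window of DNMT3B with 3.

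The genes that work with these proteins were read from lists, each by the brightest measured probe. Beside every count in these lists stands the share over all genes read this way, 0.95% lower and 0.853% higher. Among partners of maintenance methylation, together with the tRNA methyltransferase TRDMT1 (DNMT2 in the array design), 9 of 10 genes were measured. Their median log2 ratio was -0.56, with 1 lower and 0 higher, and 8 of the 9 were below 0, as were 7609 of the 13477 genes read this way. Without the 2 genes read in the corner of the array the median was -0.30, so its size rests in part on HELLS and TRIM28, a corepressor at imprinted loci (-0.56). PCNA, the replication clamp that binds DNMT1, read 1782 and 629 over 10 spots and fell by 1.54 on the log2 scale. HELLS, a chromatin remodeler needed for normal methylation, had 708 and 383 (-0.92, in the corner). USP7, which binds DNMT1 and UHRF1, had 3710 and 2462 (-0.63). CTCF, an insulator protein whose binding methylation can block, had -0.57 and -0.49 at its 2 probes. EHMT2, a histone H3 methyltransferase, had 0.37 at its brightest probe, and -0.03 and 0.16 at its others.

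The list of S-phase genes lay near 0, but it does not hold every gene of replication. PCNA, the replication clamp, was counted among the maintenance partners. The ribonucleotide reductase subunits RRM1 (-0.49) and RRM2 (1.06) were counted among the genes for uptake and activation of AZC. The median of the list thus depends on how genes were placed. A part of S phase in the ratios was not tested. Of 16 S-phase genes 10 were measured, with a median of 0.01 and 0 past the threshold in either direction. GINS1, a subunit of the replicative helicase, had the lowest value at -0.99, and MCM5 the highest at 0.30. FEN1, a flap nuclease, had -0.71 at one probe and -0.08 at the other. MCM7 had -0.34, and MCM3, MCM4, TYMS, CDC6 and CCNE2 were dim on both arrays. MCM6 read 16.7 in untreated cells, not well above background, and 25.1 after siRNA.

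Among 11 other methyl-CpG readers 6 were measured, with a median of -0.16 and 0 lower or higher. MBD6, another protein with a methyl-CpG binding domain, read 1360 and 1336 (-0.06), and MBD3L1, a germ-cell relative of MBD3, was the highest of the list at 0.04. ZBTB33 (Kaiso) was the lowest of the list at -0.77, from 37.6 to 22.6. SETDB1, a histone H3 lysine methyltransferase, had -0.24 and 0.21 at its probes, and UHRF2, the paralog of UHRF1, had -0.08. All 11 subunits of NuRD, the deacetylase complex that holds MBD2 or MBD3, were measured, with a median of -0.08 and 0 past the threshold. The lowest of these was the remodeler CHD4, at 6053 and 3735 (-0.73). The deacetylase HDAC1 had -0.33 over 10 spots, the histone chaperone RBBP7 had -0.37 and MTA3 had 0.34.

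Of the genes of active demethylation and mismatch repair of CpG, 7 of 12 were measured, with a median of 0.01. GADD45A, a stress gene, fell from 3421 to 1679 (-1.06), by a spot in the corner, and its relative GADD45G was the highest of the list at 0.13. TDG, the thymine glycosylase, had 7343 and 7216 (-0.06), but its other measured probe had 0.41. UNG, the uracil glycosylase, had -0.64, and TET2, listed as KIAA1546, had 31.4 and 32.5 (0.01). No probe was matched to TET1 or TET3. APOBEC2 read 15.9 in untreated cells, not well above background, and 29.6 after siRNA. The scaled reading was 1.81-fold higher, which is not a bound.

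The methyl donor cycle, which makes S-adenosylmethionine, had 13 of 14 genes measured, with a median of -0.08 and 0 past the threshold. MAT2A, the enzyme that makes the donor, had -0.24 in the corner and -0.17 at its other probe, and its regulatory partner MAT2B had -0.56 in the corner. AHCYL2 had 0.43 at its brightest probe and -0.12 at its other. Of 13 genes for uptake and activation of AZC 11 were measured, with a median of 0.01. RRM2, a subunit of ribonucleotide reductase, rose from 33.9 to 72.3 (1.06), by a spot in the corner, and CDA, the deaminase that inactivates cytidine analogs, had 451 and 312 (-0.57). Of 13 germline and imprinted genes, whose expression methylation is known to restrict by tissue or by parental allele, 10 were measured, with a median of 0.01 and 0 past the threshold. They ranged from -0.40 for MAEL to 0.27 for DAZL, and the imprinted RNA MEG3 had -0.02.

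**Figure D5:**
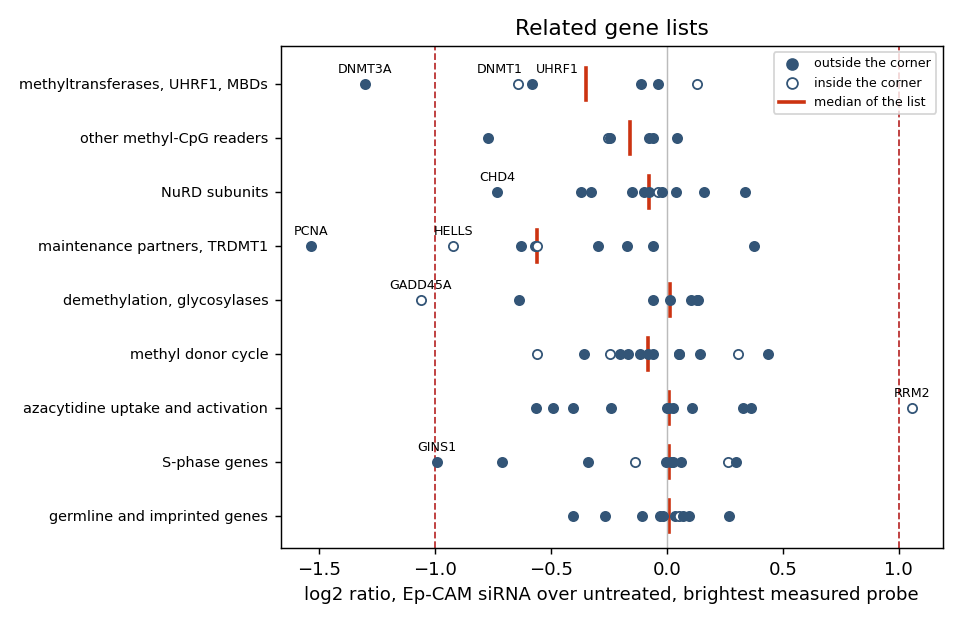
Log2 ratio of siRNA-treated over untreated cells for the brightest measured probe of each gene in the methylation genes and 8 related lists, with open circles for probes in the corner of the array, red bars for list medians and dashed lines for 2-fold. The partners of maintenance methylation have the lowest median (-0.56), and 3 genes of the related lists lie beyond a threshold: PCNA, GADD45A and RRM2. Over all 13477 genes read this way 0.95% were lower and 0.853% higher.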

How the data were processed

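The authors made the deposited intensity values with Agilent Feature Extraction (9.5.3.1 in the file headers; the series text names another version). The processed intensity is background-subtracted and divided by a trend factor, a deposited ratio near 1 for each spot; 100.0% of spots without a surrogate value met this within 0.1% on each array. The deposited table of the series held the raw median brightness. Arrays were divided by the median of their 43376 transcript spots (48.9 untreated, 50.1 siRNA-treated), 233 outlier spots were left out, and values were floored at 0.01 before log2. A probe dim on 1 array gave only a fold, computed against the higher of its own signal and the lowest signal well above background (14.9 and 17.5). For DNMT3B, MBD2 and APOBEC2 the own signal was the higher, so the fold is that of the readings and not a bound. The technical SD came from 193 probes printed repeatedly (at least 5 spots; median 0.14), using those within 2-fold in brightness.

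The named genes are all member genes, and in each list those past 2-fold, the lowest and highest, up to 4 bright ones, and PCNA, GADD45A and RRM2; UHRF2, TRIM28, UNG, TET2 and APOBEC2 were added after their values had been seen. Beside these, 1 gene planned for the lists was left out of every count and is not reported here. Members and lists were chosen with earlier results of these data known. Of 15 probe accessions 13 matched RefSeq tables. Python 3.11.15, numpy 2.4.6, pandas 2.3.3, R 4.3.3 and limma 3.58.1 were used. The code for the calls was tested on simulated data. Alternatives were other scalings, quantile normalization, normexp (offset 50), the series table, local centring, other thresholds and filters, and the arrays without the corner. Chosen after seeing the data were the normexp fit without the dimmest spot and signals before the trend correction. The number of arrays limits the precision.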

Additional observations from a re-analysis of the deposited data

How the results depend on the processing

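Under normexp background correction 2 measured methylation gene probes were lower (DNMT3A and UHRF1) and the median of all 9 was -0.32. Over all probes 1051 were lower and 26 higher, with a median of -0.20. With the dimmest spot left out of that fit, 1 methylation gene probe was lower and the median of the 9 was -0.05. All probes then had 71 lower and 92 higher, with a median of -0.02. When the probes of a gene were averaged, the median of the other methyl-CpG readers was -0.070, and without the corner of the array it was -0.079. Without the corner of the array the median of the maintenance methylation partners was -0.30. The number of demethylation genes lower was 0 after local centring and 0 without the corner of the array, where the number of azacytidine uptake genes higher was also 0. Of the single-probe values recomputed, 12 moved by more than their technical SD, 69 did not, and a called value changed sign in 0. DNMT1 moved most in the upward direction, to -0.14 in the series table, -0.15 in the normexp fit without the dimmest spot and -0.24 before the trend correction. No paired analysis was possible because each group has 1 array. Signal over background limits DNMT3B, DNMT3L, MBD2 and MBD4, and 1 array per condition leaves the variation between cultures unmeasured.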

Other observations

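A probe for a cDNA described in the array design as weakly similar to DNMT3A was dim on both arrays, with signals of 4.19 and 4.37.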
